A study of Mus musculus with 23 samples.

Results

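Described here are 32 genes of the enteric nervous system, its neurons and its glia, among the 55487 genes measured by RNA sequencing in whole mouse jejunum. They were named by symbol, through the Ensembl identifiers of the count table. No cut on their values was used, but earlier results of these data were known when they were chosen. They comprised 11 pan-neuronal genes (Elavl3, Elavl4, Uchl1, Tubb3, Ret, Snap25, Syt1, Stmn2, Prph, Nefl and Nefm), 9 neuropeptide precursors (Vip, Tac1, Calca, Calcb, Nmu, Gal, Npy, Penk and Cartpt), 4 genes of transmitter synthesis, transport or calcium binding (Nos1, Chat, Slc18a3 and Calb2), 6 glial or neural crest genes (Hand2, Ngfr, Gfap, S100b, Sox10 and Erbb3) and 2 co-receptors of the GDNF family (Gfra1 and Gfra3). The 23 libraries came from 18 female and 5 male samples of jejunum cleared of fat and Peyer's patches. Of these, 11 were from Cpa3Cre/+ mice, which carry Cre at 1 allele of the mast cell protease gene Cpa3 and are mast cell-deficient by the submitters' description, and 12 were from wild-type Cpa3+/+ mice. There were 3 Cpa3Cre/+ libraries on day 5 and 2 in every other state, and there were 3 Cpa3+/+ libraries in naive mice and on day 1 and 2 in every other state. Immunized mice of both genotypes had been injected into the peritoneum with 25 µg ovalbumin and 2 mg alum, on day 0 and again on day 14. Challenged mice were immunized in the same way and, starting at day 20, were offered plain water beside water holding 20% egg white and 8% sugar, over 1, 3 or 5 days. Naive mice received neither. The comparisons ask which genes, neuropeptides above all, differ between genotypes and states, and which do so apart from the amount of nerve and muscle RNA in each library.

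The enteric nervous system lies in the gut wall as the myenteric plexus between the muscle layers and the submucosal plexus beneath the mucosa. Its neurons are classed by what they release: Vip and Nos1 mark inhibitory motor neurons, Chat, Slc18a3 and Tac1 mark excitatory motor neurons, and in the mouse Calcb and Nmu mark intrinsic sensory neurons. Penk encodes enkephalins, which slow motility and secretion. Neuromedin U, the product of Nmu, is known in the mouse to act on group 2 innate lymphoid cells through its receptor Nmur1, and peptides of the CGRP family, encoded by Calca and Calcb, and VIP act on immune cells of the mucosa as well. Enteric glia surround the neurons and express S100b, Gfap, Sox10 and the neurotrophin receptor Ngfr.

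Promoter sequence is shown for 3 of the genes whose values the results turn on: Nmu, Vip and Ngfr. Neuropeptide genes are textbook targets of the factor CREB, which binds the cAMP response element TGACGTCA or the shorter form CGTCA, the core motif, so both were searched on both strands of the 250 bases before and 50 bases after each RefSeq transcription start (GRCm38.p6), and capitals mark the core motif, read as CGTCA or as TGACG.
Nmu (chr5:76363728-76364027, minus strand): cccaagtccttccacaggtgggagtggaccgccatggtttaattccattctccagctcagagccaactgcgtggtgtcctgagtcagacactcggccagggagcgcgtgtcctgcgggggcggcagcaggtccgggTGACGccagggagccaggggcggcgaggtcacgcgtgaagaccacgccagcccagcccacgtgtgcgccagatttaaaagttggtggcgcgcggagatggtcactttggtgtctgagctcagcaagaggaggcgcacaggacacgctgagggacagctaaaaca
Vip (chr10:5638968-5639267, plus strand): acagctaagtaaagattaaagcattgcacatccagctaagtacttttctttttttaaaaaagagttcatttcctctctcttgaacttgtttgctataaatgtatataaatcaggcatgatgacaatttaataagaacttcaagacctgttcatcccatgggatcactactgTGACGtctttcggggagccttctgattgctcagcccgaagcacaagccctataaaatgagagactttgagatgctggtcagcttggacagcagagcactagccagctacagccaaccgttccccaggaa
Ngfr (chr11:95587649-95587948, minus strand): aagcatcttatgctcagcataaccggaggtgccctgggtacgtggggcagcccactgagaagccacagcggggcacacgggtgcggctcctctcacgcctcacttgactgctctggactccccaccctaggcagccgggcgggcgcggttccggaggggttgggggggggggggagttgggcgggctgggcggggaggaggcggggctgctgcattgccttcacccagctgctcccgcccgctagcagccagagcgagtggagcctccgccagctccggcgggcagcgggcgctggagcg
The core motif lay 114 bases before the start in Nmu and 79 bases before it in Vip, and these letters were not in the Ngfr window. RefSeq windows were at hand for 21 of the 32 genes, and 11 of these 21 held it in any of their windows, against 20.8% of all 32851 windows. The first count is of genes and the second of single windows, and Elavl4 and Syt1 had several windows. Those 11 were Calca, Cartpt, Chat, Elavl4, Gal, Hand2, Nmu, Nos1, Slc18a3, Tac1 and Vip. The full element was present in 1.79% of all windows and, among the 21 genes, in Cartpt. These matches describe letters in the windows and are not evidence of binding.

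Total counts per library ran from 5476308 to 19342046, with a median of 13809248. Cpa3 was lower in Cpa3Cre/+ than in Cpa3+/+ jejunum (log2 fold change -3.05 ± 0.40 SE, averaged over the states; edgeR quasi-likelihood adjusted p = 0.0102). In the library labelled Cpa3Cre/+ naive replicate 1, Cpa3 stood at 1.07 CPM (counts scaled to the normalised library total), from 11 counts. This was within the 0.827 to 1.84 CPM of the Cpa3+/+ naive libraries. It was above the 0.101 CPM of Cpa3Cre/+ naive replicate 2 and below the 1.34 to 1.51 CPM of the 3 Cpa3Cre/+ day 5 libraries. Cpa3Cre/+ naive replicate 1 stood apart in tissue make-up: 16 smooth muscle genes summed to 10850 CPM there against at most 6274 CPM elsewhere. Its 12 enterocyte genes summed to 11100 CPM, the lowest of the 23 libraries. Counts of members in the fits without a covariate that rest on it are given without it as well. The other gene lists, some covariate fits and ratios, and the difference between genotype responses are given only with it. The labels do not state that libraries of a group are from separate animals, except where both sexes are present, so the p-values rest on library-to-library spread, part of which may be technical. In whole tissue, fewer cells of a type and less RNA per cell cannot be told apart.

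All 32 genes were detected, at levels that set Erbb3 apart from the rest. Per kilobase of exon, averaged over the libraries, the peptides Vip (9.79 CPM per kb) and Npy (6.63) led the other members, followed by the pan-neuronal ubiquitin hydrolase Uchl1 (4.97), the calcium-binding protein Calb2 (4.10) and the neuronal intermediate filament Prph (4.03). Gal, the galanin gene, stood at 3.94 CPM per kb, Nmu at 3.51, the neuronal tubulin Tubb3 at 3.32 and the neural crest factor Hand2 at 2.67. In the middle of the order were the growth-cone protein gene Stmn2 (1.68), Ngfr (1.61), Calcb (1.37), the GDNF receptor Ret (1.34), the synaptic fusion protein gene Snap25 (1.24), Tac1, which encodes substance P (1.18), and Penk (1.15). Gfra3, the co-receptor for artemin, had 0.978 CPM per kb, S100b 0.935 and the vesicle calcium sensor Syt1 0.684. The lowest were the neurofilaments Nefl (0.339) and Nefm (0.158), the nitric oxide synthase Nos1 (0.297), the vesicular acetylcholine transporter Slc18a3 (0.283), Gfap (0.269), Elavl3 (0.183), Calca (0.176) and the acetylcholine-synthesizing enzyme Chat (0.111). Elavl4, Gfra1, Sox10 and Cartpt lay between 0.451 and 0.567 CPM per kb. Exons of Nefl and Nefm share 1108 bases on opposite strands, and since the strand setting of the counting was not given in the sources used here, their reads cannot be told apart there. The same holds for 295 bases of Uchl1, 233 of Penk, 461 of Hand2, 416 of Gfra1, 268 of Nos1 and 55 of Nmu that overlap noncoding transcripts of the other strand.

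Erbb3 and Calca departed from the neuron and glia label. Erbb3, a neuregulin receptor of glia that gut epithelium also expresses, averaged 476 CPM, or 79.2 CPM per kb, above every other member. It was lowest, at 193 CPM, in Cpa3Cre/+ naive replicate 1, the library with the most muscle and the lowest enterocyte sum, and highest, at 764 CPM, in Cpa3+/+ day 1 replicate 2, the library with the lowest smooth muscle sum (1579 CPM). Calca, the alpha-CGRP gene that is textbook for extrinsic sensory neurons, had 53 counts (4.94 CPM) in Cpa3+/+ day 1 replicate 2. Every other library held at most 6 counts, and 9 of them held 0. Its level thus rested on 1 library, in which the related gene Calcb had 3 counts, and Calca was the only member that did not pass the filter on low counts. The other 31 genes passed it and were tested.

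Most members varied with the nerve and muscle content of the library. The pan-neuronal level, the geometric mean of CPM + 0.5 over the 11 pan-neuronal genes, was in Cpa3Cre/+ libraries 13.6 and 5.41 in naive mice, 4.01 and 3.265 in immunized mice, 3.42 and 4.21 on day 1, 5.655 and 5.725 on day 3 and 4.24, 2.395 and 3.31 on day 5. In Cpa3+/+ libraries it was 9.12, 5.18 and 2.92 in naive mice, 4.495 and 3.46 in immunized mice, 4.115, 3.62 and 3.08 on day 1, 5.26 and 4.69 on day 3 and 3.48 and 5.435 on day 5. The naive libraries spread most, with Cpa3Cre/+ naive replicate 1 above all others, and immunized, day 1 and day 5 libraries of both genotypes overlapped. The smooth muscle level, computed in the same way from 16 genes, was in Cpa3Cre/+ libraries 364 and 90.85 in naive mice, 67.8 and 46.2 in immunized mice, 79.5 and 78.5 on day 1, 187 and 129 on day 3 and 145, 46.9 and 67.5 on day 5. The Cpa3+/+ libraries had 163, 93.4 and 57.3 in naive mice, 102 and 85.2 in immunized mice, 85.3, 43.4 and 62.1 on day 1, 103 and 106 on day 3 and 138.5 and 124 on day 5. It was highest in the library with the highest neuronal level, and its lowest value, 43.4, was in Cpa3+/+ day 1 replicate 2.

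**Figure D1:**
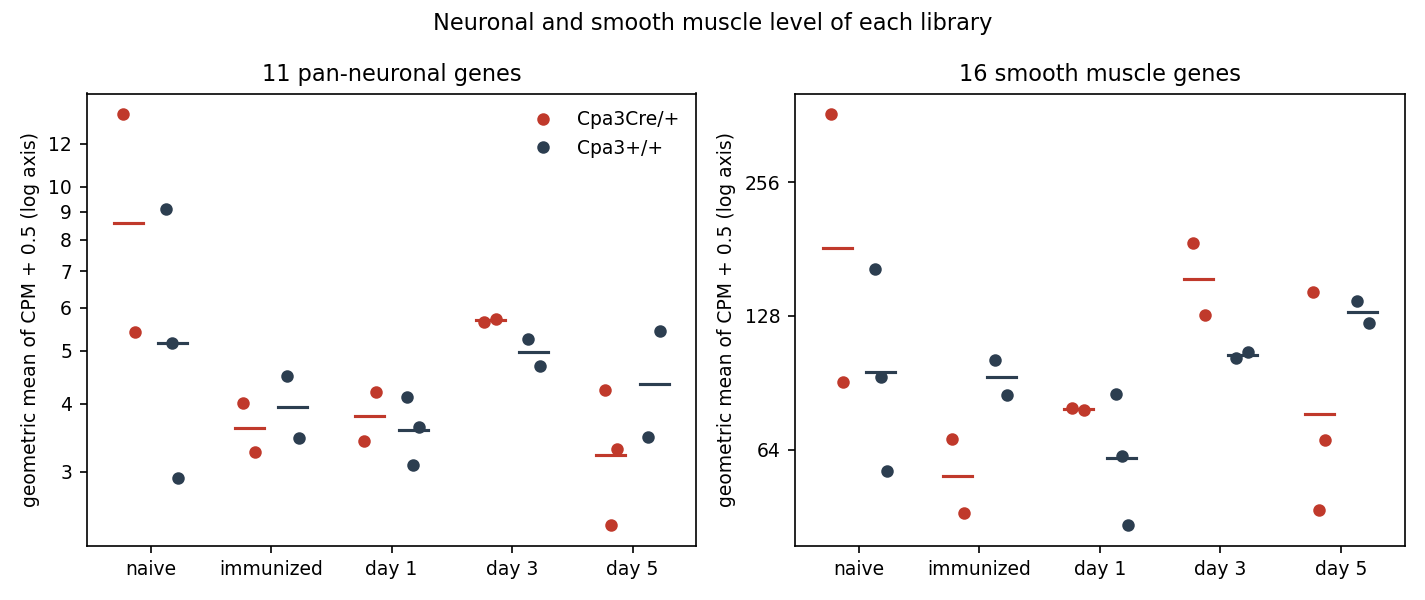
Pan-neuronal level (left, 11 genes) and smooth muscle level (right, 16 genes) of each library by state, as the geometric mean of CPM + 0.5 on log axes. Points are libraries, lines are geometric group means, and Cpa3Cre/+ is drawn left of Cpa3+/+. The 2 Cpa3Cre/+ naive libraries differ in neuronal level (13.6 and 5.41), as do the 3 Cpa3+/+ naive libraries (9.12, 5.18 and 2.92).

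Of the 32 members, 26 were highest in Cpa3Cre/+ naive replicate 1, where Vip reached 109 CPM, Stmn2 33.7 CPM and Hand2 20.7 CPM. Dividing each member by the pan-neuronal level of its library narrowed the spread between libraries for 28 of 32 members, and for 25 of 32 when that library was left out. Each of the 11 pan-neuronal genes was here divided by the level of the other pan-neuronal genes, with the gene itself left out. Dividing by the smooth muscle level narrowed the spread for 23 of 32, and the neuronal level left the smaller spread for 30 of 32. Vip followed the neuronal level closely: its SD over the 23 libraries was 0.657 as log2(CPM + 0.5) and 0.248 as log2 ratio. Nmu kept more of its spread, with an SD of 0.734 as a level and 0.576 as a ratio. The ratio was no narrower than the level for Erbb3 (SD 0.846 as a ratio, 0.432 as a level), Calca (0.893 and 0.714), Gfra3 (0.578 and 0.321) and Nefm (0.443 and 0.442).

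**Figure D2:**
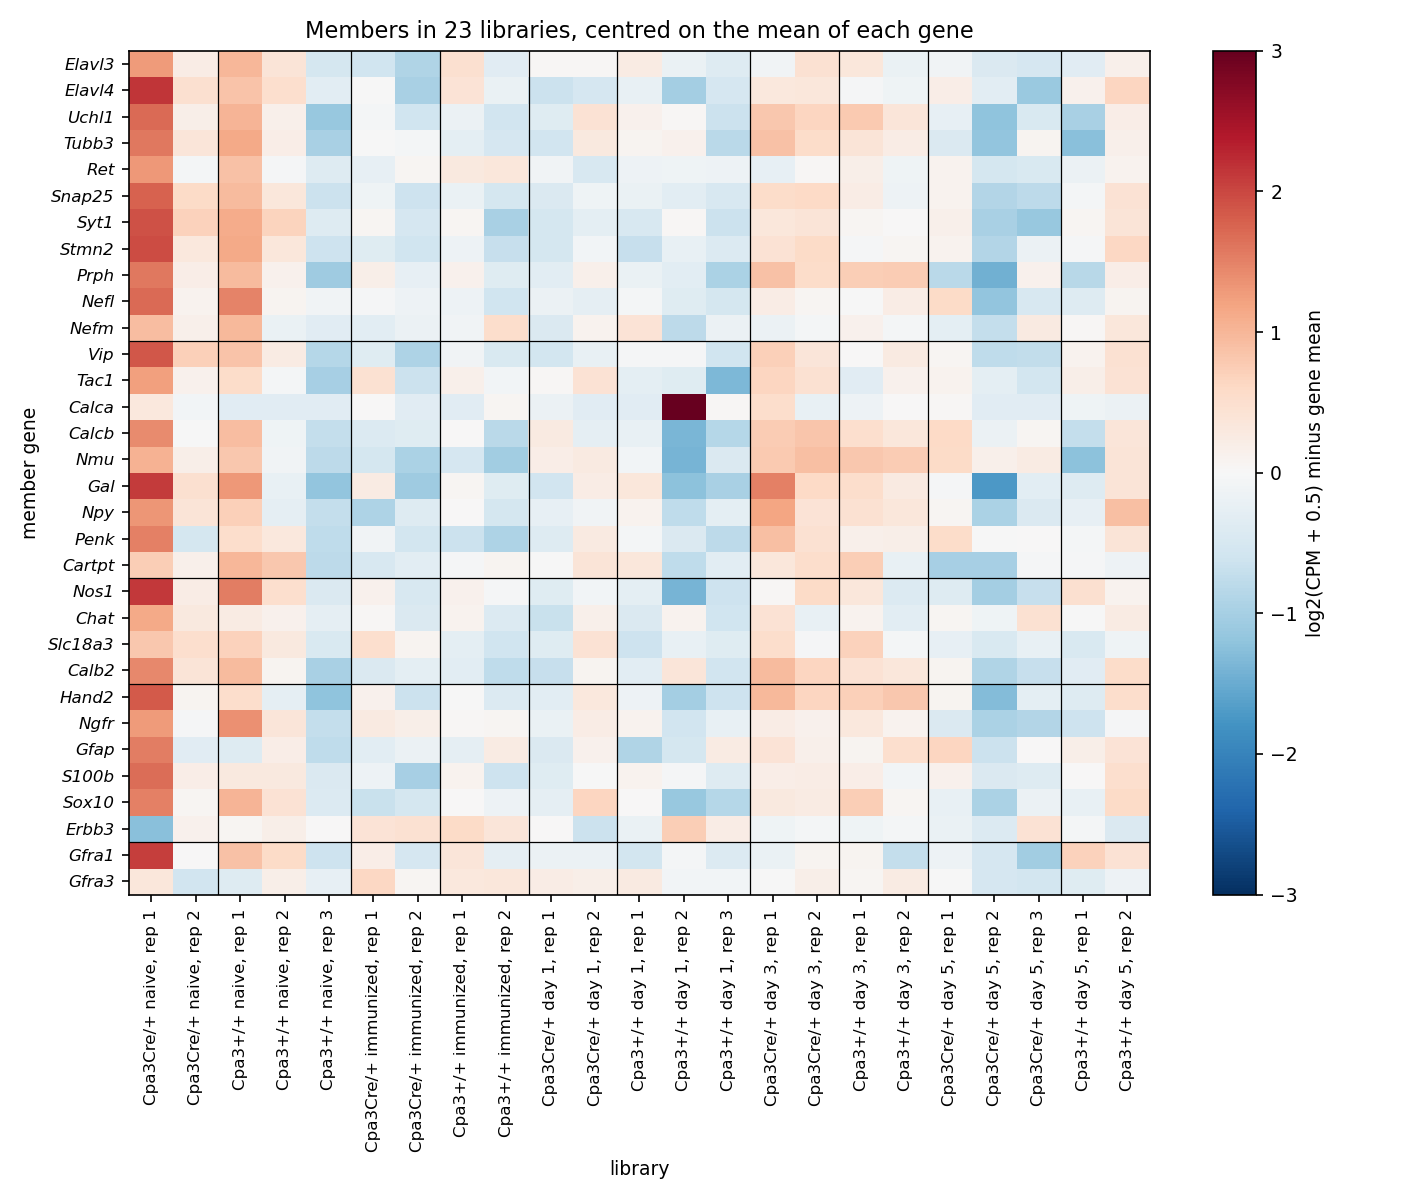
Level of the 32 members (rows, grouped as pan-neuronal, neuropeptide, transmitter, glial or neural crest, and GDNF co-receptor genes) in the 23 libraries (columns, by state), as log2(CPM + 0.5) minus the mean of each gene. Cpa3Cre/+ naive replicate 1 holds the highest value of 26 of the 32 rows, and Calca stands out in Cpa3+/+ day 1 replicate 2, at 4.94 CPM.

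**Figure D3:**
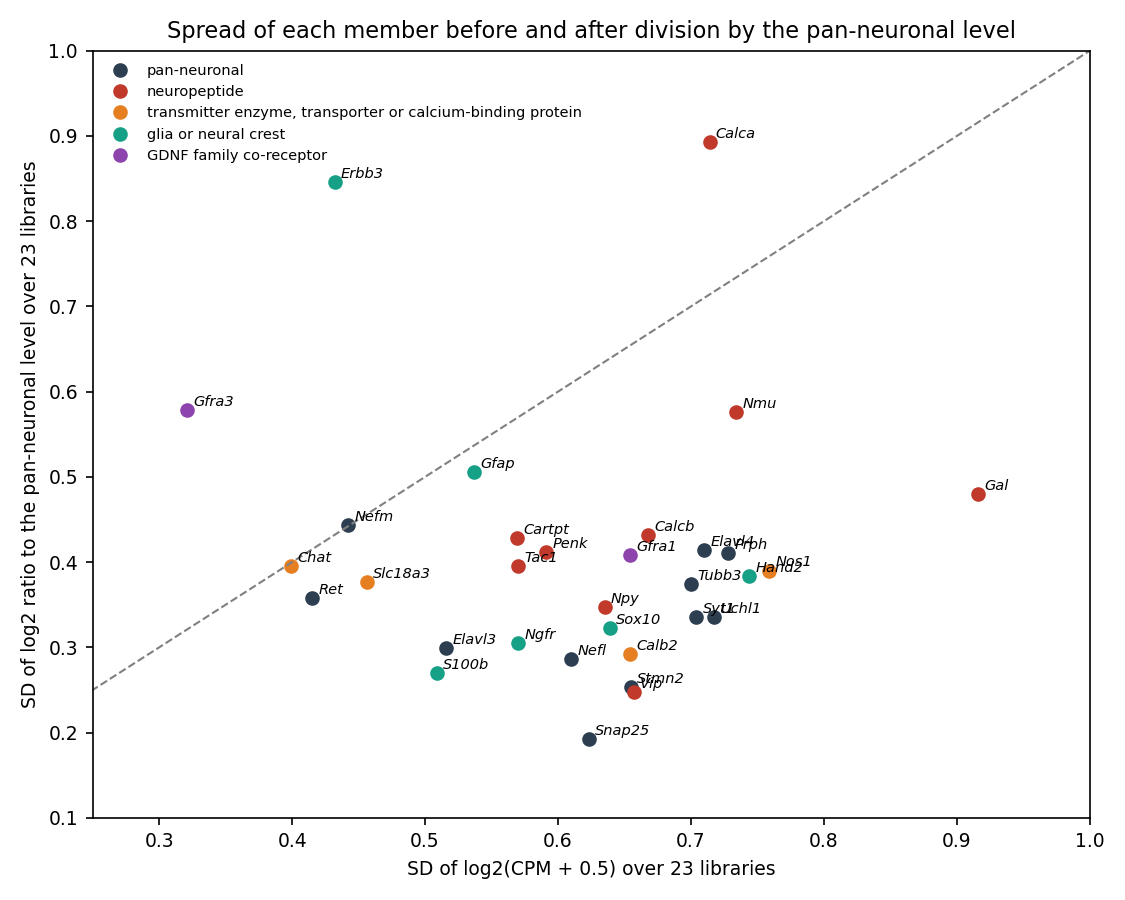
SD over 23 libraries of each member as log2(CPM + 0.5) (horizontal) and as log2 ratio to the pan-neuronal level (vertical), coloured by group. For a pan-neuronal gene the level leaves that gene out. The dashed line marks equal SDs. Below it lie 28 members, among them Vip (0.657 and 0.248), and Erbb3, Calca, Gfra3 and Nefm lie on or above it.

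Between genotypes, the peptides Calcb and Penk had the largest positive differences among the members, and no member passed over all genes. Averaged over the 5 states, 0 of 31 members had an adjusted p under 0.05 in Cpa3Cre/+ against Cpa3+/+ jejunum, where 0.029% of the 17236 genes tested did so (edgeR quasi-likelihood test). At an unadjusted p under 0.05 there were 2 higher members, Calcb and Penk, and 0 lower, against 0.772% of all genes higher and 0.348% lower. The log2 fold change of Calcb was 0.81 ± 0.32 (edgeR adjusted p = 1), that of Penk 0.77 ± 0.30 (edgeR adjusted p = 1), that of Slc18a3 0.63 ± 0.33 (edgeR adjusted p = 1) and that of Nmu 0.59 ± 0.31 (edgeR adjusted p = 1). The median over the members was 0.32, with 27 of 31 positive, beside 0.03 over all genes, of which 57.5% were positive. The 16 smooth muscle genes had a median of 0.31, with 16 of 16 positive. Without Cpa3Cre/+ naive replicate 1, 0 members had an unadjusted p under 0.05 (0.59% of all genes higher, 1.2% lower), and Calcb had 0.60 (edgeR adjusted p = 1) and Penk 0.30 (edgeR adjusted p = 1). With the pan-neuronal level as a covariate the median over the 20 tested members outside that level was 0.07, Calcb had 0.56 ± 0.22 (edgeR adjusted p = 1) and Penk 0.43 ± 0.20 (edgeR adjusted p = 1). These were 2 of the 20, against 0.516% of all genes higher in that fit, and 0 members passed after adjustment, where 0% of all genes did. Without Cpa3Cre/+ naive replicate 1 this fit had 1 member at an unadjusted p under 0.05, Calcb (0.753% of all genes higher), and Penk was no longer among them.

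Within single states the genotypes differed at an unadjusted p under 0.05 in 8 of 31 members of naive mice, all higher in Cpa3Cre/+, against 4.13% of all genes higher, and 0 passed after adjustment (0% of all genes). The 8 were Vip (log2 fold change 1.25), Hand2 (1.51), Gfap (1.55), S100b (1.32), Elavl4 (1.25), Npy (1.14), Snap25 (1.06) and Stmn2 (1.00). Vip had 109 and 48.8 CPM in Cpa3Cre/+ naive libraries and 53.7, 35.5 and 16.2 CPM in Cpa3+/+ naive libraries, and the groups overlapped. Replicate 1 of the Cpa3Cre/+ group was above and replicate 2 within the Cpa3+/+ range, and without replicate 1 the naive comparison had 0 members at an unadjusted p under 0.05. With the pan-neuronal level as a covariate 1 of 20 members, Vip (0.53 ± 0.23, edgeR adjusted p = 1), had one (0.946% of all genes higher).

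After immunization, neuronal, glial and muscle genes were lower together than in naive jejunum, without any member passing over all genes. Averaged over genotypes, 0 of 31 members and 0% of all genes had an adjusted p under 0.05. At an unadjusted p under 0.05 there were 18 lower members (7.01% of all genes lower) and 1 higher, Erbb3 (3.93% of all genes higher). Of the 31 members 29 had negative values (54% of all genes), with a median of -1.13, beside -0.04 over all genes and -1.11 over the 16 smooth muscle genes, of which 16 were negative. The members with the smallest p were Vip (log2 fold change -1.25 ± 0.29), Stmn2 (-1.37 ± 0.35), Snap25 (-1.21 ± 0.32) and Syt1 (-1.36 ± 0.38), all with an edgeR adjusted p of 0.377. The 8 B cell follicle markers had differences of the opposite sign, with a median of 2.68 and sums of 11.8 to 121 CPM in immunized and 6.70 to 29.3 CPM in naive libraries, and their part in these differences was not tested. In Cpa3Cre/+ mice alone 16 members were lower at an unadjusted p under 0.05 (8.64% of all genes lower), and in Cpa3+/+ mice 1 was, Penk (0.783%). Without Cpa3Cre/+ naive replicate 1 the average over genotypes had 7 lower members (1.62% of all genes lower) and 1 higher (4.01% higher) at an unadjusted p under 0.05, with a median of -0.67, and 0 were called over all genes. Without that library the Cpa3Cre/+ mice alone had 2 lower, Npy and Vip (2.04% of all genes lower), and 1 higher, Gfra3 (3.23%). Of Vip, the difference between the 2 genotype responses, with all libraries, was -1.32, and 0 of 31 members and 0% of all genes passed that test after adjustment.

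With the pan-neuronal level as a covariate the median over the 20 tested members outside that level was -0.01, with 10 positive and 10 negative values. Gfra3 (log2 fold change 0.92 ± 0.35, edgeR adjusted p = 0.706) and Hand2 (0.61 ± 0.28, edgeR adjusted p = 0.868) had an unadjusted p under 0.05, 2 of 20 members against 4.33% of all genes higher. After adjustment 0 members passed, and 0.0116% of all genes did.

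Challenge was compared with immunized, unchallenged mice, day by day. On day 1, 0 of 31 members and 0% of all genes passed after adjustment, and 0 members had an unadjusted p under 0.05 against 3.16% of all genes. On day 3, 26 of 31 members had positive values (54% of all genes), with a median of 0.70 beside 0.04 over all genes and 0.81 over smooth muscle genes. Here 8 members had an unadjusted p under 0.05 and were higher (4.71% of all genes higher), 0 were lower (4.87% of all genes lower), and 0 passed after adjustment (0% of all genes). They were Nmu (1.85 ± 0.46, edgeR adjusted p = 0.483), Npy (1.19 ± 0.36, edgeR adjusted p = 0.483), Calb2 (1.11 ± 0.38, edgeR adjusted p = 0.49), Penk (1.25 ± 0.45, edgeR adjusted p = 0.49), Calcb (1.28), Vip (0.78), Uchl1 (1.02) and Hand2 (1.02). Of these 8, 5 were neuropeptide genes. In the same fit 6 of 16 smooth muscle genes and 1 of 6 other neuropeptide precursors were higher at an unadjusted p under 0.05. On day 5 the median over the members was -0.07, and 2 members, Gfra3 (-0.82 ± 0.30, edgeR adjusted p = 0.163) and Ngfr (-0.88 ± 0.36, edgeR adjusted p = 0.205), were lower at an unadjusted p under 0.05 (8.77% of all genes lower) and 0 were higher (8.52%). On that day 1.94% of all genes passed after adjustment and 0 of 31 members did.

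With the pan-neuronal level as a covariate, between 1 and 7 of 20 members had an unadjusted p under 0.05 on each day. On day 1 this was Nmu (log2 fold change 0.81 ± 0.33, edgeR adjusted p = 0.975), 1 of 20 members against 2.41% of all genes higher. On day 3, 5 of 20 members were higher (2.27% of all genes) and 1 was lower (3.27%): Nmu (1.33 ± 0.36, edgeR adjusted p = 0.658), Npy (0.76), Penk (0.68), Calb2 (0.57) and Vip (0.36) against Ngfr (-0.48). On day 5, 4 were higher (9.49% of all genes) and 3 lower (9.67%). The members with the smallest p on day 5 were Ngfr (-0.78 ± 0.20, edgeR adjusted p = 0.0510), Penk (0.97 ± 0.29, edgeR adjusted p = 0.0844), Nmu (1.00 ± 0.34, edgeR adjusted p = 0.121) and Gfra3 (-0.78 ± 0.27, edgeR adjusted p = 0.128), and Vip (0.37), S100b (0.67) and Erbb3 (-0.59) were the others. Smooth muscle genes were also higher in this fit, with a median of 0.31 on day 3 and 0.57 on day 5. Of the 16, 3 were higher at an unadjusted p under 0.05 on day 3 and 7 on day 5. So were 4 of 7 tuft cell genes on day 5 (median 0.845), and the part of the tuft cell genes in the member values was not tested. No member passed after adjustment in this fit on any of the 3 days, while 2.61% of all genes passed on day 5 and 0% on days 1 and 3. With the smooth muscle level in place of the neuronal level, Ngfr had -1.10 on day 5 (edgeR adjusted p = 0.0374). With both levels as covariates, no member passed after adjustment on any of these days. The 3 day-by-day comparisons share the 4 immunized libraries.

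The same question was asked with 1 value per gene and library, the ratio of CPM + 0.5 to the pan-neuronal level of that library. This ratio fits no slope and takes it as 1 for every gene, whereas the fitted slopes of members ran from -0.36 (Erbb3) to 1.97 (Gal). Of the 21 members outside the pan-neuronal list, 3 had an exact permutation p under 0.05 between genotypes (two-sided, labels permuted within states), all higher in Cpa3Cre/+, against 0.0754% of all genes higher. In challenged against immunized libraries 6 of 21 did, 4 higher (0.487% of all genes) and 2 lower (1.93%). In immunized against naive libraries 1 of 21 did, Tac1, which was higher, a share close to the 5.62% of all genes. The ratio adds the spread of the neuronal level to genes that do not follow it, such as Erbb3 (SD 0.846, against 0.432 as a level). The shares of all genes are therefore not those expected without any difference. An excess of members over them was not tested. The median log2 ratio difference over all genes was -0.08 between genotypes, -0.105 with challenge and 0.80 after immunization, and that of Tac1, 0.54, was below the last of these. Adjusted over all 17236 genes, 0 members passed and 0% of genes passed in any of the 3 comparisons. The smallest p these permutations allow is 2.78e-05, 0.000772 and 0.0167 in that order.

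Nmu had the largest of these differences with challenge. Its level in Cpa3Cre/+ jejunum was 5.75 and 2.92 in naive mice, 1.60 and 1.07 in immunized mice, 2.98 and 3.16 on day 1, 4.72 and 5.18 on day 3 and 4.02, 2.86 and 3.11 on day 5, in CPM. In Cpa3+/+ jejunum it was 4.795, 2.32 and 1.28 in naive mice, 1.66 and 0.973 in immunized mice, 2.385, 0.652 and 1.75 on day 1, 4.79 and 4.65 on day 3 and 0.805 and 3.47 on day 5. All 4 day 3 libraries had more Nmu than every immunized library, whereas 1 Cpa3+/+ library on day 1 and 1 on day 5 were below every immunized one. As a ratio to the pan-neuronal level, Nmu was in Cpa3Cre/+ libraries 0.460 and 0.632 in naive mice, 0.524 and 0.481 in immunized mice, 1.02 and 0.869 on day 1, 0.923 and 0.992 on day 3 and 1.07, 1.40 and 1.09 on day 5. Nmu ratios in Cpa3+/+ libraries were 0.581, 0.544 and 0.608 in naive mice, 0.480 and 0.426 in immunized mice, 0.701, 0.318 and 0.731 on day 1, 1.01 and 1.10 on day 3 and 0.375 and 0.731 on day 5. The 9 unchallenged libraries of both genotypes lay between 0.426 and 0.632, all 7 challenged Cpa3Cre/+ libraries lay above that range, at 0.869 to 1.40, and the 7 challenged Cpa3+/+ libraries ran from 0.318 to 1.10, across it.

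The Nmu ratio averaged 0.823 in challenged and 0.476 in immunized libraries (geometric means), a log2 difference of 0.79 (exact permutation p = 0.00772, two-sided, 14 against 4 libraries, adjusted p = 0.998 over all genes). Within Cpa3Cre/+ mice the difference was 1.05 (exact permutation p = 0.0278, the smallest that 36 permutations allow) and within Cpa3+/+ mice 0.53 (exact permutation p = 0.361). The difference between these responses was not beyond its error: with the pan-neuronal level as a covariate it was 0.50 ± 0.57 (edgeR adjusted p = 1). Between genotypes over all states, Nmu averaged 0.809 in Cpa3Cre/+ and 0.594 in Cpa3+/+ libraries, a log2 difference of 0.37 (exact permutation p = 0.0275, adjusted p = 1 over all genes). In 3 of the 5 states every Cpa3Cre/+ ratio was above every Cpa3+/+ ratio. On day 3 every one was below, and in naive mice the genotypes overlapped. Relative to the smooth muscle level in place of the neuronal level, the challenge difference was 0.55 (exact permutation p = 0.122) and the genotype difference 0.39 (exact permutation p = 0.131). Leaving out 1 library put the genotype p above 0.05 for Cpa3Cre/+ naive replicate 2, either Cpa3Cre/+ day 1 library, any Cpa3Cre/+ day 5 library or Cpa3+/+ day 5 replicate 1, with differences of 0.28 to 0.40 in these cases.

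Penk followed the same direction as Nmu in both comparisons. Its ratio to the pan-neuronal level was in Cpa3Cre/+ libraries 0.460 and 0.2785 in naive mice, 0.506 and 0.457 in immunized mice, 0.491 and 0.625 on day 1, 0.726 and 0.522 on day 3 and 0.750, 0.905 and 0.664 on day 5. The Cpa3+/+ libraries gave ratios of 0.345, 0.525 and 0.444 in naive mice, 0.311 and 0.332 in immunized mice, 0.514, 0.447 and 0.410 on day 1, 0.465 and 0.524 on day 3 and 0.607 and 0.522 on day 5. Both immunized Cpa3+/+ libraries were below all 7 challenged Cpa3+/+ libraries, and in Cpa3Cre/+ mice the highest ratio was on day 5. Challenged libraries averaged 0.570 and immunized ones 0.393, a log2 difference of 0.54 (exact permutation p = 0.00154, adjusted p = 0.998 over all genes). Within Cpa3+/+ mice it was 0.62 (exact permutation p = 0.0278, the smallest possible) and within Cpa3Cre/+ mice 0.45 (exact permutation p = 0.111). In CPM, Penk in Cpa3Cre/+ jejunum was 5.75 and 1.01 in naive mice, 1.53 and 0.993 in immunized mice, 1.18 and 2.13 on day 1, 3.61 and 2.49 on day 3 and 2.68, 1.67 and 1.69 on day 5. In Cpa3+/+ jejunum it was 2.65, 2.22 and 0.798 in naive mice, 0.898 and 0.649 in immunized mice, 1.615, 1.12 and 0.762 on day 1, 1.94 and 1.96 on day 3 and 1.61 and 2.34 on day 5. Of the levels, those of challenged and immunized libraries overlapped in both genotypes.

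Between genotypes the Penk ratio averaged 0.556 in Cpa3Cre/+ and 0.445 in Cpa3+/+ libraries, a log2 difference of 0.27 (exact permutation p = 0.0355, adjusted p = 1 over all genes). Without Cpa3Cre/+ naive replicate 1 this was 0.20 (exact permutation p = 0.178), and the p was also above 0.05 without any 1 of Cpa3+/+ naive replicate 1, Cpa3Cre/+ immunized replicate 1, Cpa3Cre/+ day 1 replicate 2, Cpa3+/+ or Cpa3Cre/+ day 3 replicate 1, or Cpa3+/+ day 5 replicate 2. Relative to the smooth muscle level the challenge difference was 0.30 (exact permutation p = 0.226) and the genotype difference 0.29 (exact permutation p = 0.153).

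Calcb, the beta-CGRP gene, had the smallest p between genotypes. Its ratio to the pan-neuronal level was in Cpa3Cre/+ libraries 0.395 and 0.3715 in naive mice, 0.379 and 0.481 in immunized mice, 0.709 and 0.398 on day 1, 0.604 and 0.627 on day 3 and 0.7145, 0.739 and 0.635 on day 5. Those of the Cpa3+/+ libraries were 0.4175, 0.3575 and 0.417 in naive mice, 0.449 and 0.332 in immunized mice, 0.421, 0.215 and 0.360 on day 1, 0.544 and 0.540 on day 3 and 0.352 and 0.473 on day 5. The genotypes overlapped in naive and immunized mice and on day 1, and on days 3 and 5 every Cpa3Cre/+ library was above every Cpa3+/+ library of its day. The mean was 0.532 in Cpa3Cre/+ and 0.396 in Cpa3+/+ libraries, a log2 difference of 0.36 (exact permutation p = 0.00803, adjusted p = 1 over all genes). Without Cpa3Cre/+ day 1 replicate 1 it was 0.27 (exact permutation p = 0.05715), and relative to the smooth muscle level 0.37 (exact permutation p = 0.0679). In CPM, Calcb in Cpa3Cre/+ jejunum was 4.88 and 1.51 in naive mice, 1.02 and 1.07 in immunized mice, 1.92 and 1.18 on day 1, 2.91 and 3.09 on day 3 and 2.53, 1.27 and 1.60 on day 5. In Cpa3+/+ jejunum it was 3.31, 1.35 and 0.718 in naive mice, 1.52 and 0.649 in immunized mice, 1.23, 0.280 and 0.610 on day 1, 2.36 and 2.03 on day 3 and 0.724 and 2.07 on day 5. The lowest value rested on 3 counts, in the library that held the Calca reads. With challenge, Calcb differed by 0.29 from immunized libraries (exact permutation p = 0.194), by 0.54 in Cpa3Cre/+ (exact permutation p = 0.0556) and by 0.04 in Cpa3+/+ mice (exact permutation p = 0.889).

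**Figure D4:**
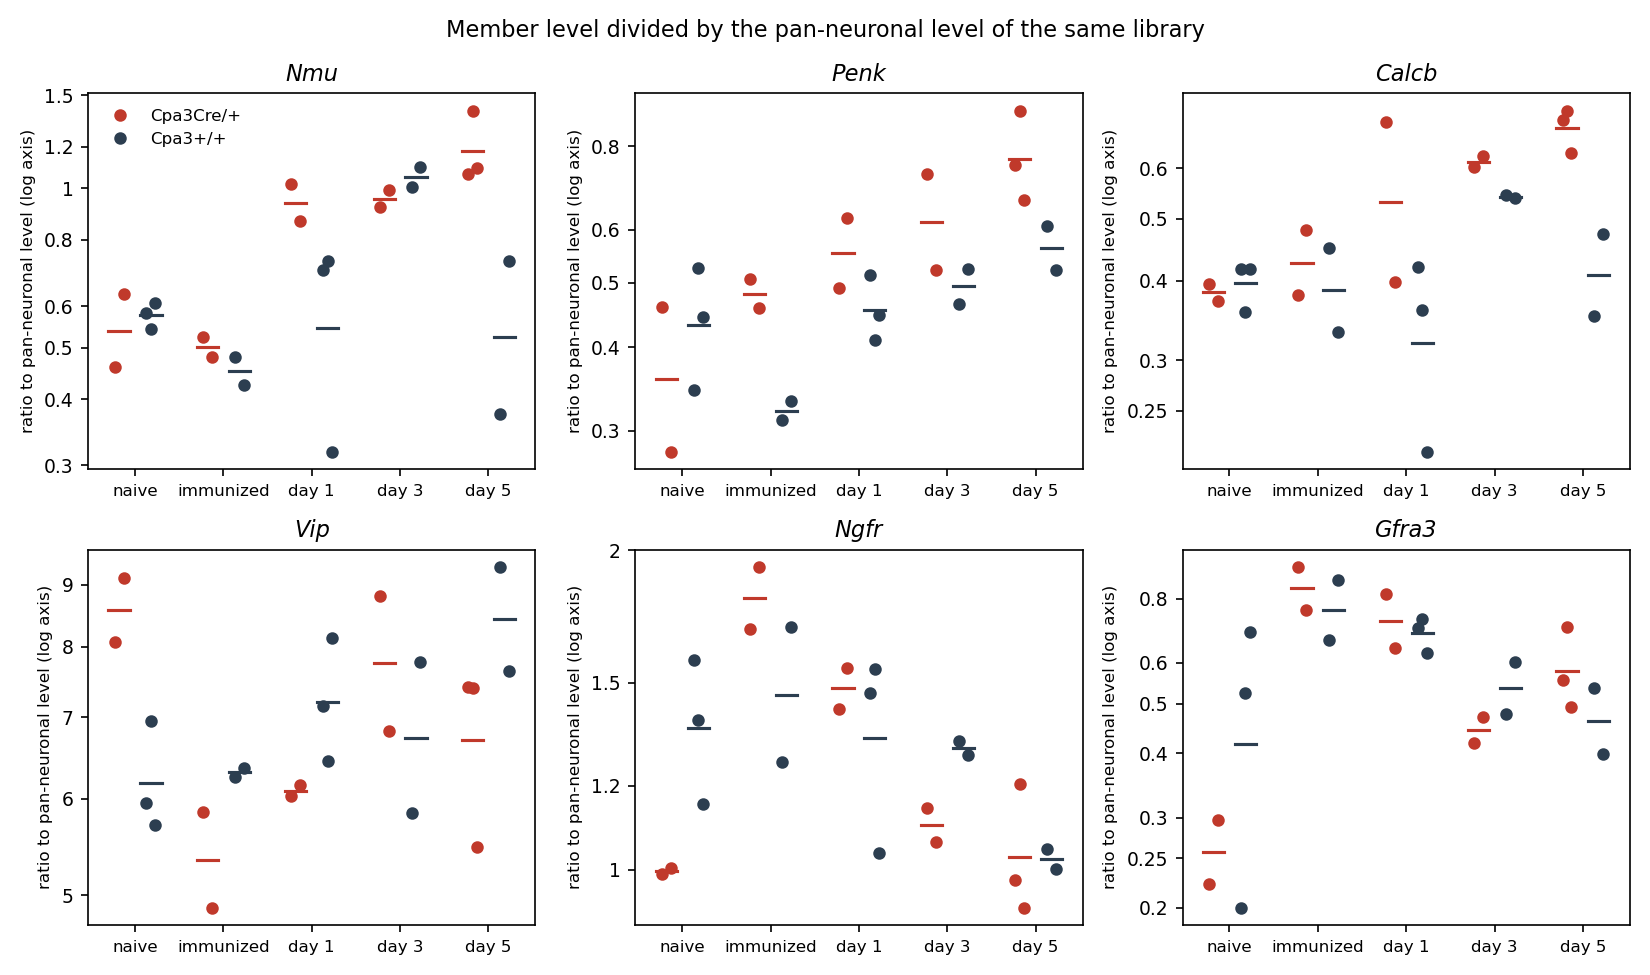
Ratio to the pan-neuronal level of Nmu, Penk, Calcb, Vip, Ngfr and Gfra3 by state, on log axes. Points are libraries, lines are geometric group means, and Cpa3Cre/+ is drawn left of Cpa3+/+. Nmu lies between 0.426 and 0.632 in all 9 unchallenged libraries and at 0.869 or above in the 7 challenged Cpa3Cre/+ libraries, and Ngfr has 1.69 and 1.93 in the immunized Cpa3Cre/+ libraries, above the 7 challenged libraries of that genotype.

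Vip, the most abundant peptide gene of the set, had in Cpa3Cre/+ libraries a ratio of 8.065 and 9.12 in naive mice, 5.85 and 4.88 in immunized mice, 6.03 and 6.16 on day 1, 8.81 and 6.82 on day 3 and 7.42, 7.405 and 5.475 on day 5. In Cpa3+/+ libraries its ratio was 5.95, 6.96 and 5.71 in naive mice, 6.26 and 6.36 in immunized mice, 7.15, 8.14 and 6.445 on day 1, 5.84 and 7.765 on day 3 and 9.31 and 7.64 on day 5. The immunized Cpa3Cre/+ libraries were among the lowest, and challenged libraries overlapped the immunized ones in both genotypes. The means were 7.09 in challenged and 5.80 in immunized libraries, a log2 difference of 0.29 (exact permutation p = 0.0286, adjusted p = 0.998 over all genes). Without Cpa3Cre/+ immunized replicate 2 it was 0.22 (exact permutation p = 0.132), without either immunized Cpa3+/+ library the p was above 0.05 as well (0.0694 and 0.066, exact permutation), and relative to the smooth muscle level it was 0.05 (exact permutation p = 0.803).

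Tac1, the substance P gene, had a ratio of 0.732 and 0.855 in naive mice, 1.45 and 0.831 in immunized mice, 1.25 and 1.34 on day 1, 1.17 and 1.01 on day 3 and 1.07, 1.44 and 0.863 on day 5 in Cpa3Cre/+ libraries. Cpa3+/+ libraries had ratios of 0.671, 0.786 and 0.717 in naive mice, 1.05 and 1.15 in immunized mice, 0.832, 0.910 and 0.533 on day 1, 0.6365 and 0.988 on day 3 and 1.37 and 1.05 on day 5. The immunized Cpa3+/+ libraries were above the naive ones, and in Cpa3Cre/+ mice 1 of 2 was. Immunized libraries averaged 1.10 and naive ones 0.750, a log2 difference of 0.54 (exact permutation p = 0.0333, adjusted p = 0.32 over all genes), which missed 0.05 without any of 8 of the 9 libraries (0.34 to 0.59, exact permutation p of 0.0833 to 0.167). Npy, the neuropeptide Y gene of secretomotor and sympathetic neurons, was at 0.967 in challenged and 0.744 in immunized libraries, a log2 difference of 0.38 (exact permutation p = 0.0687). Gal differed by 0.08 (exact permutation p = 0.807), with the steepest dependence on the neuronal level of the tested members, a slope of 1.97 log2 units per log2 unit. Cartpt, the CART peptide gene, never exceeded 1.49 CPM, and its ratio ran from 0.118 to 0.339.

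Among glial and receptor genes, Ngfr and Gfra3 were lower relative to the neurons in challenged than in immunized mice. Ngfr, the low-affinity neurotrophin receptor, had a ratio of 0.990 and 1.00 in naive mice, 1.69 and 1.93 in immunized mice, 1.42 and 1.55 on day 1, 1.14 and 1.06 on day 3 and 0.978, 1.204 and 0.920 on day 5 in Cpa3Cre/+ libraries. The values in Cpa3+/+ libraries were 1.58, 1.38 and 1.15 in naive mice, 1.26 and 1.69 in immunized mice, 1.47, 1.04 and 1.55 on day 1, 1.32 and 1.28 on day 3 and 1.05 and 1.00 on day 5. All 7 challenged Cpa3Cre/+ libraries were below both immunized ones, and the 2 Cpa3Cre/+ naive libraries were within the range of the day 5 libraries. The means were 1.195 in challenged and 1.62 in immunized libraries, a log2 difference of -0.44 (exact permutation p = 0.0108, adjusted p = 0.998 over all genes). Within Cpa3Cre/+ mice it was -0.63 (exact permutation p = 0.0278, the smallest possible) and within Cpa3+/+ mice -0.25 (exact permutation p = 0.25). Without Cpa3+/+ immunized replicate 2 it was -0.34 (exact permutation p = 0.09375), relative to the smooth muscle level -0.68 (exact permutation p = 0.0571), and with the naive libraries added to the immunized ones -0.20 (exact permutation p = 0.148), a comparison chosen after the data were seen.

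Gfra3 had a ratio of 0.223 and 0.297 in naive mice, 0.924 and 0.761 in immunized mice, 0.818 and 0.642 on day 1, 0.420 and 0.470 on day 3 and 0.557, 0.706 and 0.493 on day 5 in Cpa3Cre/+ libraries. The Cpa3+/+ ratios were 0.1999, 0.525 and 0.6895 in naive mice, 0.664 and 0.871 in immunized mice, 0.701, 0.627 and 0.731 on day 1, 0.478 and 0.602 on day 3 and 0.537 and 0.399 on day 5. Both immunized Cpa3Cre/+ libraries were above the naive, day 3 and day 5 libraries of the same genotype, and in Cpa3+/+ mice the immunized libraries overlapped the naive and day 1 libraries. The means were 0.572 in challenged and 0.799 in immunized libraries, a log2 difference of -0.48 (exact permutation p = 0.0162, adjusted p = 0.998 over all genes). In immunized against naive libraries it was 1.29 (exact permutation p = 0.0667), with means of 0.799 and 0.344. As a level, Gfra3 varied little: it had an SD of 0.321 and a slope of 0.46 on the neuronal level, and it ran from 1.11 CPM in Cpa3Cre/+ naive replicate 2 to 3.20 CPM in Cpa3Cre/+ immunized replicate 1. The challenge difference was -0.38 without Cpa3+/+ immunized replicate 2 (exact permutation p = 0.0868), -0.41 without Cpa3Cre/+ immunized replicate 1 (exact permutation p = 0.066), -0.72 relative to smooth muscle (exact permutation p = 0.0532) and 0.20 with naive and immunized libraries together (exact permutation p = 0.443), where the sign was the opposite.

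S100b, the calcium-binding protein of glia, averaged a ratio of 0.426 in challenged and 0.349 in immunized libraries, a log2 difference of 0.285 (exact permutation p = 0.037, adjusted p = 0.998 over all genes). Without Cpa3Cre/+ immunized replicate 2 it was 0.15 (exact permutation p = 0.271), without Cpa3+/+ immunized replicate 2 0.20 (exact permutation p = 0.167) and relative to smooth muscle 0.05 (exact permutation p = 0.86). Gfap, the glial filament gene, ran from 0.127 to 0.583, Sox10, a transcription factor of neural crest and glia, from 0.215 to 0.642 and Hand2, needed for enteric neuron maturation, from 0.807 to 2.23. On day 5 against immunized, with the neuronal level as a covariate, S100b was higher and Ngfr lower at an unadjusted p under 0.05. The transmitter genes had no exact permutation p under 0.05 in any of the 3 ratio comparisons. Calb2, a marker of excitatory motor and sensory neurons, was nearest, at 1.69 in challenged and 1.33 in immunized libraries, a log2 difference of 0.34 (exact permutation p = 0.0556).

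Other genes of the same pathways were counted from lists that do not overlap the members. In immunized against naive jejunum, 27 of 28 other neuronal and vesicle genes were lower, with a median of -0.87, and 15 had an unadjusted p under 0.05 and were lower, beside 54% and 7.01% of all genes. Of 11 other glial genes 8 were lower (median -0.51, 6 at an unadjusted p under 0.05), of 17 neuropeptide receptor genes 14 (median -0.92, 4) and of 12 peptide processing and granule genes 10 (median -0.49, 6). Of 8 genes of GDNF and endothelin signalling 5 were lower (median -0.39, 1), of 8 other transmitter genes 4 (median -0.09, 2), and 6 other neuropeptide precursors had a median of 0.22. None of these genes passed after adjustment. With the pan-neuronal level as a covariate the medians of the 28 neuronal and 11 glial genes were 0.00 and -0.06. All values of these lists include Cpa3Cre/+ naive replicate 1, which was not left out here.

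On day 3 against immunized, 22 of the 28 other neuronal and vesicle genes were higher (median 0.44), beside 54% of all genes. At an unadjusted p under 0.05, 2 of them were higher, beside 4.71% of all genes. Of the 11 other glial genes 10 were higher (median 0.18), 0 of them at that p. The other 1 was lower at that p (4.87% of all genes lower). Of the 17 receptor genes 9 were higher (median 0.02), 0 of them at that p. After adjustment 0 genes of these lists passed. The 13 enteroendocrine genes, which mark another source of peptides in the gut, had a median of 0.245 on day 3 and -0.03 on day 5, with sums of 499 to 686 CPM on day 3 and 435 to 647 CPM in immunized libraries. Their part in the peptide values was not tested.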

How the data were processed

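RNA was extracted from whole jejunum of Cpa3Cre/+ and Cpa3+/+ mice, and libraries from a stranded kit were sequenced, per the labels' protocols. The deposited table holds raw read counts per Ensembl gene, for which the submitters' processing notes list STAR, featureCounts and Subread 1.5.1 and the builds mm10 and GRCm38, with no roles stated. Whether the counting used strand is not given in the sources used here. Symbols came from GENCODE vM21, and 260 of 55487 genes had none.

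Counts were normalised by TMM and tested with edgeR 4.0.16 (R 4.3.3; robust quasi-likelihood fit, 10 group means plus sex, 12 residual degrees of freedom) on the 17236 genes that passed filterByExpr, with Benjamini-Hochberg adjustment over all of them. A second fit added the pan-neuronal level as a covariate, and calls in it were counted over the members outside that level. Ratios used a pseudocount of 0.5 CPM and exact stratified two-sided permutation tests, in Python 3.11.15. With total counts of 5476308 to 19342046 per library, the common biological coefficient of variation was 28.6%. The fits and the permutation test were checked on simulated data.

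Named in each comparison were members called over all genes, up to 4 members with the smallest unadjusted p, and members whose ratio had an exact p under 0.05. Other values, such as day 3 members beyond 4, were added after they were seen. Members and gene lists were chosen with earlier results of these data known. Alternatives were another normalization, no filter on low counts, DESeq2 1.42.0, no sex term, female libraries, a replicate block, other indices and pseudocounts, and each library left out.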

Additional observations from a re-analysis of the deposited data

How the results depend on the processing

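Of the counts of members called and ratio calls, 364 alternative values were unchanged within 1.5 times, 17 were larger and 17 smaller, and of the values of named members 993 kept their side of the threshold, 30 newly passed it, 60 no longer did and 1 changed sign. Shares in parentheses are of all genes called in the same setting. In immunized against naive jejunum, members called over all genes numbered 0 as reported, 9 with no filter on low counts (1.8%), 1, Vip, with the DESeq2 test (0.211%), 11 with female libraries only (5.46%), and 0 to 8 with 1 library left out, 8 without Cpa3Cre/+ naive replicate 2 (3.45%). On day 3 they numbered 0 as reported, 4 with no filter, Uchl1, Nmu, Vip and Calb2 (0.886%), and 1 with DESeq2, Nmu at a DESeq2 adjusted p = 0.0428 (0.113%). With the pan-neuronal level as a covariate, day 5 had 0 as reported, 1, Ngfr, with DESeq2 (7.36%), with the smooth muscle level in its place (2.23%) or with a level of 7 pan-neuronal genes (2.68%), 2, Penk and Ngfr, without the sex term (4.61%), and 0 to 2 with 1 library left out: 1 without Cpa3Cre/+ naive replicate 1 (3.81%) or 2 (3.53%) and 2 without Cpa3Cre/+ day 5 replicate 3 (10%) or Cpa3+/+ day 1 replicate 2 (5.69%). It had 4, Penk, Nmu, Erbb3 and Ngfr (7.53%), without Cpa3Cre/+ naive replicate 1 and Cpa3+/+ day 1 replicate 2 together, a setting chosen after seeing the data.

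Of the ratio calls, the 3 between genotypes became 0 relative to smooth muscle, 1 (Calcb) with summed CPM as the neuronal level, and 1 to 4 with 1 library left out, 1 without either Cpa3Cre/+ day 1 library. The 6 with challenge became 1 (Nos1, lower) relative to smooth muscle and 2 to 9 with 1 library left out, 2 without Cpa3+/+ immunized replicate 2 and 9 without Cpa3+/+ day 1 replicate 2. The 1 after immunization (Tac1) became 2 (Tac1 and Erbb3) with a pseudocount of 1 CPM or 7 pan-neuronal genes, 0 with female libraries only, and 0 to 1 with 1 library left out. With naive and immunized libraries together, added after seeing the data, Gfra3 had 0.20 in place of -0.48 on the log2 scale. The causes of these changes were not tested.

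Deviations of same-numbered libraries of both genotypes from their group means correlated at -0.297 to 0.402. With 2 libraries per group both replicates give the same value by construction. These few correlations therefore cannot decide whether equal replicate numbers pair the libraries. With the replicate block the ratio calls numbered 1 between genotypes (Calcb, exact permutation p = 0.0273), 0 with challenge, where the smallest possible p is 0.125, and 0 after immunization, and 0 members were called in the fits over all genes, as without it. Low counts limit Calca and Cartpt, and with 2 or 3 libraries a group small differences were not detectable.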

Other observations

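Beyond the members, 2 genes of the neuronal and peptide lists fell on day 5 against immunized mice after adjustment over all genes. Dnm1, the dynamin GTPase of synaptic vesicle retrieval, had 84.2, 84.35 and 98.55 CPM in Cpa3Cre/+ and 81.05 and 73.3 CPM in Cpa3+/+ mice on day 5, against 160 and 129 CPM in immunized Cpa3Cre/+ and 119 and 145 CPM in immunized Cpa3+/+ mice. All 5 day 5 libraries were below all 4 immunized ones (log2 fold change -0.73 ± 0.16, edgeR adjusted p = 0.0298, with 1.94% of all genes called in that comparison). It was the 1 gene called of 28 tested other neuronal and vesicle genes, whose median was -0.02. Dnm1 did not follow the neuronal level over the libraries. It had 76.5 CPM in Cpa3Cre/+ naive replicate 1, where that level was highest. Its own highest value, 192 CPM, was in Cpa3+/+ day 1 replicate 2, the library with the lowest smooth muscle level. In which cells it was lower on day 5 was not tested.

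Pcsk1n, which encodes the prohormone convertase inhibitor proSAAS, had 0, 0 and 0.377 CPM in Cpa3Cre/+ and 0.0805 and 0.134 CPM in Cpa3+/+ mice on day 5, against 3.35 and 2.52 CPM in immunized Cpa3Cre/+ and 0.829 and 1.46 CPM in immunized Cpa3+/+ mice (edgeR adjusted p = 0.0450). On day 3 it had 0.624 and 0.349 CPM in Cpa3Cre/+ and 7.22 and 6.46 CPM in Cpa3+/+ mice. The naive libraries ran from 0 CPM in Cpa3+/+ replicate 3 to 5.95 CPM in Cpa3+/+ replicate 1, a range that holds the day 5 values. The immunized values rested on 12 to 46 counts. The median over the 12 peptide processing and granule genes was -0.07. Cpe, the carboxypeptidase that trims peptide precursors, was called higher on day 5 with the pan-neuronal level as a covariate (log2 fold change 0.70 ± 0.17, edgeR adjusted p = 0.0427) and not without it.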
